A study of Mus musculus with 4 samples.

Results

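De-differentiated fat (DFAT) cells of the inguinal white adipose tissue (iWAT) were compared with cultured stromal vascular fraction (SVF) cells of the same depot, across all genes. Each side is 1 single-cell RNA sequencing library, called iWAT_DFAT and iWAT_SVF here, and no condition has a replicate. Cells were taken as barcodes with 5000 to 75000 unique molecular identifiers (UMIs, the barcodes that count single captured RNA molecules), 200 to 7500 genes and under 10% of UMIs in mitochondrially encoded genes. This left 7629 cells in iWAT_DFAT and 7424 in iWAT_SVF, together 15053 of the 28262 cells in the 4 libraries of the series. The other 2 libraries hold the same pair of cultures from the epididymal depot (eWAT_DFAT and eWAT_SVF).

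The cells came from male C57BL/6J mice on chow diet, with no transgene or treatment named for these cultures. For DFAT cells, floating mature adipocytes were separated from the digested inguinal pad and kept in ceiling culture, in which they adhere to an upper surface, lose their lipid and become spindle-shaped. For SVF cells, the pelleted stromal cells of the pad were plated and grown, so the iWAT_SVF library holds stromal cells after culture and not cells fresh from tissue. Both cultures were detached with trypsin, sorted as live cells by exclusion of the dye 7-AAD and captured with droplets and a 3′ kit. The age of the mice and the number pooled per culture were not given in the sources used here. The study describes taking adipocytes and stromal cells side by side from the same depots, so the cultures may share mice, but which mice gave the sequenced cultures was not given. Culture method, culture dish and library are 1 unit on each side and cannot be told apart.

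Adipose stem and progenitor cells (ASPCs) are the stromal cells that can become adipocytes, and they carry the receptor PDGFRA. They lay down the collagen-rich matrix of the depot, can take on a contractile, myofibroblast-like state on stiff surfaces, and can secrete chemokines and acute phase proteins. NF-κB is a family of transcription factor dimers that inhibitors of the IκB type hold in the cytoplasm. Inflammatory signals free it to switch on chemokine, cytokine and acute phase genes together with its own inhibitors. Serum response factor (SRF) and its partners switch on genes of the actin cytoskeleton and of smooth muscle contraction.

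UMIs were summed over the cells of a library and scaled by the library total to CPM, the counts of a gene relative to all UMIs of the library. The sums held 183664704 UMIs in iWAT_DFAT and 199357348 in iWAT_SVF, with medians of 22111 and 24930 UMIs and 5057 and 5119 genes per cell. In ratios a count of 0 was set to a floor of 3 counts, equal to 0.0163 CPM in iWAT_DFAT and 0.0150 CPM in iWAT_SVF. The median cell had 3.12% of its UMIs in mitochondrially encoded genes in iWAT_DFAT and 2.18% in iWAT_SVF. The libraries share 13 cell barcodes, 0.170% of the cells of iWAT_DFAT and 0.175% of those of iWAT_SVF. In a sum over cells, fewer cells with an RNA and less of it per cell cannot be told apart, and the spread over cells is given further on for some of the genes. A gene was tested, in the sense of compared, where it reached 5 CPM in the higher library, and called where the libraries differed by 2-fold or more. With 1 library a side no statistical test was possible. Intervals in brackets are exact 95% intervals that cover counting error only, and the spread between cultures was not measured on either side.

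The libraries do not carry the same file header. That of iWAT_SVF names Cell Ranger 4, those of the other 3 libraries name Cell Ranger 7.1.0, and the processing notes give version 7.0.0 with introns included for all. The comparison was therefore set out by the length of each gene's introns. Among 257 tested genes without introns the median log2 ratio of iWAT_DFAT over iWAT_SVF was -0.006, and it was -0.07 among 1709 genes with up to 5000 intronic bases. It was 0.03 for 3042 genes with 5000 to 20000 intronic bases, 0.16 for 3973 genes with up to 100000, and 0.32 for 1445 genes with more. Genes with 100000 or more intronic bases took 10.3% of UMIs in iWAT_DFAT and 8.48% in iWAT_SVF, and 8.20% and 8.26% in eWAT_DFAT and eWAT_SVF. In the epididymal pair the 5 medians were 0.07, -0.04, 0.04, 0.11 and 0.14. The header leaves it unknown whether reads in introns were counted in iWAT_SVF, and the part of the software version in these differences was not tested. Any such part would bear most on genes with long introns, such as Vstm2a (164822 intronic bases), Kcnk10 (140100), Enpp2 (108213) and Nfkb1 (94832). The intervals of these genes do not cover it. Members with short introns (under 5000 intronic bases in all) were also read alone. Where a list median printed below then turned its sign, or its log2 value changed by over 1.5 times, that value is given with its number of genes. It stands where the median is first printed.

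**Figure D1:**
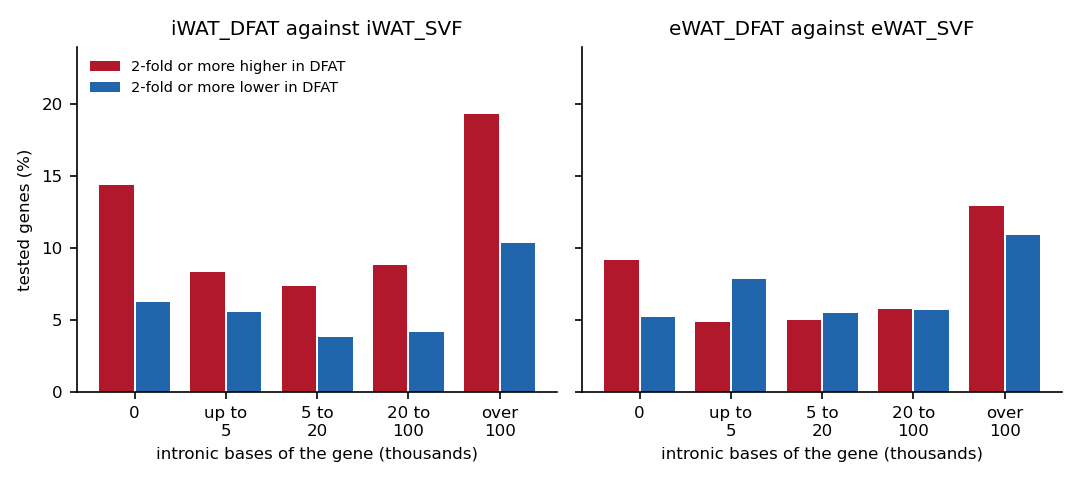
Share of tested genes (percent) at least 2-fold higher (red) or lower (blue) in DFAT, by the intronic bases of the gene (axis in units of 1000 bases), for the inguinal pair (left) and the epididymal pair (right). Genes with 100000 or more intronic bases have the tallest bars in both pairs, 19.3% higher and 10.4% lower in the inguinal pair.

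Markers fixed for the cell types of the stroma were compared with the labels. All 14 ASPC markers reached the level at which genes were tested. The receptor gene Pdgfra was at 246 CPM in iWAT_DFAT and 84.5 CPM in iWAT_SVF (log2 ratio 1.54), and Pdgfrb, the receptor of later progenitors and mural cells, at 97.5 and 135 CPM (log2 ratio -0.47). The summed level of the 14 markers was 7067 CPM in iWAT_DFAT and 5992 CPM in iWAT_SVF. Of the genes that define other cells, the pan-leukocyte gene Ptprc had 2 UMIs in iWAT_DFAT and 19 in iWAT_SVF, the T cell gene Cd3e none in either, and the epithelial gene Epcam 6 and 14.

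Markers of other cell types were at low levels in iWAT_DFAT. In iWAT_SVF most were low too, but Acta1 was at 115 CPM and Krt19 at 70.7 CPM. The 10 Schwann cell markers summed to 7.99 CPM in iWAT_DFAT and 42.0 CPM in iWAT_SVF, and all 4 that were tested were at least 2-fold lower. The 11 endothelial markers summed to 26.9 and 47.1 CPM, with 3 of 4 tested lower, among them Emcn at 1.25 CPM in iWAT_DFAT and 11.2 CPM in iWAT_SVF (log2 ratio -3.16). The 10 mural markers summed to 33.8 and 50.9 CPM, with 1 of 5 tested higher and 2 lower. The pericyte gene Cspg4 was at 0.768 and 9.74 CPM (log2 ratio -3.67) and Mcam at 1.48 and 18.6 CPM (log2 ratio -3.65), while Ndufa4l2 was the higher one at 18.3 and 8.36 CPM (log2 ratio 1.13). The 15 macrophage and immune markers summed to 22.1 and 22.7 CPM. Of the 2 tested, the macrophage lysozyme gene Lyz2 was at 0.278 and 7.26 CPM (log2 ratio -4.71), and Csf1r was within 2-fold, with the higher level in iWAT_DFAT, at 18.4 and 11.1 CPM (log2 ratio 0.72). The 11 mesothelial markers summed to 6.62 and 76.3 CPM, of which Krt19 alone was at 5.78 and 70.7 CPM (log2 ratio -3.61), while Msln had 0 and 12 UMIs. The 10 skeletal muscle markers summed to 6.37 and 122.9 CPM, and the only one tested was the skeletal actin gene Acta1. No epithelial marker reached 5 CPM. When only cells with a UMI of Pdgfra or Pdgfrb and few markers of other cells were kept, 1063 genes were higher and 524 lower, against 1033 and 540 with all cells. This kept 7343 of 7629 cells in iWAT_DFAT and 6324 of 7424 in iWAT_SVF, and it selects on Pdgfra, which was itself higher in iWAT_DFAT. The part of cell composition in the ratios was not tested.

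Of 10426 tested genes, 1033 were called higher in iWAT_DFAT, 9.91% of those tested, and 540 lower, 5.18%. With a 4-fold limit 398 genes were higher and 228 lower, and with a 16-fold limit 90 and 52. Of all tested genes 41.9% lay within 1.2-fold, and the median log2 ratio was 0.09 with quartiles of -0.22 and 0.43. Medians by chromosome ran from 0.02 on chromosome 8 to 0.19 on chromosome 18 over 20 chromosomes. Counts of a gene list are to be read beside these 2 shares of all tested genes, and no list was tested for enrichment. Lists share genes, such as Cxcl1, Ccl2, Il6 and Lcn2, which are also among the NF-κB targets. Their counts are thus not independent of each other.

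The 12 genes with the largest ratios towards iWAT_DFAT, among genes with 20 CPM or more in the higher library, were led by a single acute phase gene. Saa3 (ENSMUSG00000040026, chr7:46711998-46715700 of mm10), which codes for serum amyloid A3, an acute phase apolipoprotein made outside the liver, had 572061 UMIs in iWAT_DFAT and 86 in iWAT_SVF. These are levels of 3115 CPM (3107 to 3123) in iWAT_DFAT and 0.431 CPM (0.345 to 0.533) in iWAT_SVF, a log2 ratio of 12.82 (12.51 to 13.14). Droplets with 1 to 100 UMIs, which hold free RNA, had Saa3 at 3518 CPM in iWAT_DFAT and 0.981 CPM in iWAT_SVF, and with the free profile subtracted at 5% the log2 ratio was 12.91.

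Most of the other 11 code for secreted factors, enzymes and membrane proteins. Serpinb2, the plasminogen activator inhibitor of type 2, was at 497 CPM in iWAT_DFAT and 0.281 CPM in iWAT_SVF (log2 ratio 10.79, 10.41 to 11.19). Under the alternatives on cells, scaling and free RNA its log2 ratio ran from 10.67 to 11.59. Il13ra2, a decoy receptor of interleukin 13, was at 25.2 and 0.0401 CPM (log2 ratio 9.29, 8.31 to 10.51), and Csf3, which codes for the granulocyte growth factor G-CSF, at 27.1 and 0.0552 CPM (log2 ratio 8.94, 8.10 to 9.94). All 3 were close to absent from iWAT_SVF, with 56, 8 and 11 UMIs there. Akr1c18, an aldo-keto reductase that inactivates progesterone, was at 139 and 0.296 CPM (log2 ratio 8.87). Lcn2, the siderophore-binding lipocalin, was at 179 and 0.542 CPM (log2 ratio 8.37), from 7.755 to 9.85 under the alternatives on cells, scaling and free RNA, and the neutrophil chemokine gene Cxcl2 at 117 and 0.502 CPM (log2 ratio 7.86). Rarres2 codes for chemerin, a chemoattractant that fat secretes, and stood at 929 and 5.51 CPM (log2 ratio 7.40, 7.31 to 7.48). Enpp2, which codes for the lysophosphatidic acid producing enzyme autotaxin, was at 58.0 and 0.356 CPM (log2 ratio 7.35). Steap4, a metalloreductase, was at 50.5 and 0.321 CPM (log2 ratio 7.30), and the potassium channel gene Kcnk10 at 72.0 and 0.416 CPM (log2 ratio 7.43). Gm16685, a predicted gene, was at 52.6 and 0.110 CPM (log2 ratio 8.90). The next in order, Vstm2a, a gene of preadipocyte commitment, had a log2 ratio of 7.28.

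The 12 largest ratios towards iWAT_SVF held 5 genes of contraction and muscle, Actg2, Myh11, Cnn1, Acta1 and Fhl1. Igfbp2, an insulin-like growth factor (IGF) binding protein, came first (ENSMUSG00000039323, chr1:72824503-72852474 of mm10). It was at 0.278 CPM in iWAT_DFAT and 54.3 CPM in iWAT_SVF (log2 ratio -7.61, -8.04 to -7.22). Lgr5, a receptor of R-spondins and a stem cell marker in epithelia, was at 0.397 and 41.8 CPM (log2 ratio -6.72, -7.07 to -6.38). Col11a1, a minor fibrillar collagen, was at 1.80 and 148 CPM (log2 ratio -6.36, -6.52 to -6.20). Few molecules of these 3 genes were counted in iWAT_DFAT, 51, 73 and 331 UMIs. C1qtnf3, which codes for an adipokine of the CTRP family, was at 0.240 and 20.8 CPM (log2 ratio -6.44), Tnmd, a membrane glycoprotein of tendon and fat, at 0.376 and 21.5 CPM (log2 ratio -5.84), and the glutamate transporter gene Slc1a6 at 0.648 and 52.1 CPM (log2 ratio -6.33). Gm32647, a predicted gene, was at 0.196 and 28.3 CPM (log2 ratio -7.17). The next in order, Ccn3, a matricellular gene, had a log2 ratio of -5.10.

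Among the genes with the most UMIs, those of the actin cytoskeleton were lower in iWAT_DFAT. Acta2, the smooth muscle actin gene and marker of myofibroblasts (ENSMUSG00000035783, chr19:34241090-34255590 of mm10), was at 394 CPM (391 to 397) in iWAT_DFAT and 8763 CPM (8749.9 to 8776) in iWAT_SVF, a log2 ratio of -4.47 (-4.49 to -4.46). Tmsb4x, which codes for the actin-binding thymosin beta 4, was at 2462 and 8178 CPM (log2 ratio -1.73), and Sparc, a collagen-binding matricellular gene, at 3603 and 7490.1 CPM (log2 ratio -1.06). Cytoplasmic actin Actb was at 4523 and 8461 CPM (log2 ratio -0.90), just under 2-fold. In the other direction, Fth1, the heavy chain of the iron store ferritin, was at 10127 and 4689 CPM (log2 ratio 1.11). Malat1, a nuclear RNA, had a log2 ratio of 0.01, at 8820.5 and 8769.5 CPM.

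All 5 NF-κB subunit genes were higher in iWAT_DFAT, 4 of them at least 2-fold, with a median log2 ratio of 1.85 against 0.09 for all tested genes (1.16 for the 1 member with short introns). Nfkb1, which codes for p105 and p50, was at 307 CPM in iWAT_DFAT and 55.5 CPM in iWAT_SVF (log2 ratio 2.47, 2.44 to 2.49), and Relb, the partner subunit of the non-canonical pathway, at 81.7 and 15.3 CPM (log2 ratio 2.42, 2.36 to 2.47). Rel was at 44.3 and 12.3 CPM (log2 ratio 1.85, 1.78 to 1.91) and Nfkb2 at 39.7 and 17.8 CPM (log2 ratio 1.16, 1.10 to 1.22). Rela, which codes for the p65 subunit, had the smallest difference at 49.2 and 27.3 CPM (log2 ratio 0.85, 0.80 to 0.90). These are RNA levels, and the position of the proteins in the cell was not measured.

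The inhibitors that NF-κB itself switches on were also higher. Of 8 tested feedback genes 6 were at least 2-fold higher and 0 lower, with a median log2 ratio of 2.22. Tnfaip3, which codes for the ubiquitin editor A20, was at 110.2 CPM in iWAT_DFAT and 2.73 CPM in iWAT_SVF (log2 ratio 5.33, 5.21 to 5.46). Nfkbia, which codes for the inhibitor IκBα, was at 464 and 44.3 CPM (log2 ratio 3.39), and Nfkbiz at 176 and 26.5 CPM (log2 ratio 2.73). Nfkbib and Cyld were within 2-fold, with log2 ratios of 0.48 and 0.88. Among 18 tested NF-κB target genes 15 were higher and 0 lower, with a median of 2.86. Mmp9, a gelatinase gene, was at 32.6 and 0.361 CPM (log2 ratio 6.49), the survival gene Birc3 at 55.3 and 8.32 CPM (log2 ratio 2.73) and the superoxide dismutase gene Sod2 at 799 and 101 CPM (log2 ratio 2.99). The exceptions were Csf1, Gadd45b and Plau, whose log2 ratios were 0.21, -0.19 and -0.05.

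The promoters of these genes were read for GGGA, any 2 bases and TTCC, a form of the κB site, in the 250 bases before each RefSeq start, on either strand. Of 7 CXC chemokine genes with a RefSeq promoter, 4 held it, as did 3 of 13 NF-κB targets, 2 of 7 feedback genes and 1 of 3 subunits. It was in 0 of 5 genes of the CC chemokine list and 0 of 6 acute phase genes. Of all 27025 genes with a promoter 1.36% held it. Among the tested genes with a promoter, 1.41% held it, and 1.54% of the 780 higher genes and 1.34% of the 373 lower genes with a promoter did. The stretches below are shown for 6 genes called higher, the 3 neutrophil chemokines with the same match, a cytokine, an inhibitor and a subunit. Matches in Cxcl10, which was also higher, and in Csf1 and Cyld, which were within 2-fold, are not printed, nor is a further match of Nfkb2. The stretches are given 5′ to 3′ on the gene's own strand, with the match in capitals, from RefSeq on GRCm38.p6. A match is a description of letters and not a measured site.
Cxcl1, chr5:90891149-90891209, plus strand: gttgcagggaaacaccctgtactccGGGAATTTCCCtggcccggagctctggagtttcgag
Cxcl2, chr5:90903777-90903837, plus strand: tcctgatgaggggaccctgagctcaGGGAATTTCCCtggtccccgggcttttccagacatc
Cxcl3, chr5:90786003-90786063, plus strand: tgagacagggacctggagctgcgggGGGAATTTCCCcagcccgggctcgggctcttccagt
Il6, chr5:30013045-30013104, plus strand: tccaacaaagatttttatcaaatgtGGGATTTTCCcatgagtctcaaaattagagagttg
Nfkbia, chr12:55492648-55492701, minus strand: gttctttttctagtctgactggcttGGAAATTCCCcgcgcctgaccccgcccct
Nfkb2, chr19:46305680-46305739, plus strand: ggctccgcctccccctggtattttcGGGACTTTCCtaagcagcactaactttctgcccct
The 3 neutrophil chemokine genes carry the same 11 letters on chromosome 5.

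CXC chemokines, which draw neutrophils and lymphocytes, had 9 tested members, of which 8 were higher and 1 lower in iWAT_DFAT, with a median log2 ratio of 4.57 (3.54 with a minimum of 20 CPM). Cxcl5 (ENSMUSG00000029371, chr5:90759360-90761624 of mm10) was at 3347 CPM (3338 to 3355) in iWAT_DFAT and 24.7 CPM (23.97 to 25.4) in iWAT_SVF, a log2 ratio of 7.08 (7.04 to 7.13). Cxcl1 was at 1408 and 59.2 CPM (log2 ratio 4.57) and Cxcl3 at 15.5 and 0.206 CPM (log2 ratio 6.24). These 3 and Cxcl2 bind the same neutrophil receptor, and all 4 were over 16-fold higher. The exception was Cxcl14, a chemokine of resting stroma and epithelia, at 69.1 and 807 CPM (log2 ratio -3.55, -3.57 to -3.52). Cxcl12, which holds blood progenitors in their niche, was at 583 and 169 CPM (log2 ratio 1.78), and Cxcl10, an interferon-induced chemokine, at 12.9 and 2.15 CPM (log2 ratio 2.59).

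The CC chemokine list also holds the fractalkine gene Cx3cl1, which is not a CC chemokine. Of the list's 9 tested members 5 were higher and 1 lower, with a median of 1.87 (3.25 over 7 members with short introns, 3.455 with a minimum of 20 CPM). Ccl2, the main monocyte attractant, was at 2816 CPM in iWAT_DFAT and 257 CPM in iWAT_SVF (log2 ratio 3.45, 3.44 to 3.47) and its neighbour Ccl7 at 1047 and 287 CPM (log2 ratio 1.87). The eosinophil attractant Ccl11 was at 58.2 and 1.57 CPM (log2 ratio 5.21), and Ccl8 at 35.8 and 1.39 CPM (log2 ratio 4.68). The lower member was Cx3cl1, the membrane-bound fractalkine, at 2.56 and 5.68 CPM (log2 ratio -1.15).

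All 8 tested acute phase genes were higher, with a median log2 ratio of 5.07. Besides Saa3 and Lcn2 these were Serpina3n at 80.3 CPM in iWAT_DFAT and 1.40 CPM in iWAT_SVF (log2 ratio 5.84), the haemoglobin scavenger gene Hp at 159 and 2.86 CPM (log2 ratio 5.79), and Ptx3, the long pentraxin, at 1525 and 244 CPM (log2 ratio 2.65). Cp, which codes for the copper carrier ceruloplasmin, was at 47.4 and 4.04 CPM (log2 ratio 3.55), Lbp, the endotoxin-binding protein, at 34.5 and 9.55 CPM (log2 ratio 1.85), and Serpina3g at 56.3 and 2.76 CPM (log2 ratio 4.35). Reads of Serpina3g and Serpina3n may be shared with close copies, so the division between them is uncertain.

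Complement genes were mostly higher. Of 11 tested, 7 were higher and 2 lower, with a median of 2.25 (4.88 for the 1 member with short introns). C3, the central component, was at 271 CPM in iWAT_DFAT and 8.81 CPM in iWAT_SVF (log2 ratio 4.95, 4.88 to 5.02) and its convertase partner Cfb at 49.7 and 1.69 CPM (log2 ratio 4.88). The C1 protease genes C1s1 and C1ra had log2 ratios of 3.09 and 2.84, and their inhibitor Serping1 2.71. The membrane regulator Cd59a was lower, at 2.22 and 37.9 CPM (log2 ratio -4.09, -4.24 to -3.95), as was the lectin pathway protease Masp1 at 2.74 and 9.12 CPM (log2 ratio -1.74). The macrophage-made C1qa had 0 UMIs in iWAT_DFAT and 81 in iWAT_SVF, and it was not among the tested genes.

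Interferon-stimulated genes were mostly higher in iWAT_DFAT. Of 25 tested, 19 were at least 2-fold higher and 0 lower, with a median log2 ratio of 1.64. The ubiquitin-like Isg15 was at 35.7 CPM in iWAT_DFAT and 1.88 CPM in iWAT_SVF (log2 ratio 4.25, 4.10 to 4.40), the GTPase gene Iigp1 at 35.1 and 1.75 CPM (log2 ratio 4.33), and the RNA-sensing enzyme Oasl2 at 17.3 and 1.97 CPM (log2 ratio 3.13). Ifit1 was at 19.6 and 3.36 CPM (log2 ratio 2.54), and Irf7, the factor that amplifies the interferon response, at 16.02 and 2.06 CPM (log2 ratio 2.96). Ifit2 and Isg20 were among those within 2-fold, with log2 ratios of 0.35 and -0.60. Genes of MHC class I presentation, which interferon also raises, gave 7 of 18 higher and 0 lower with a median of 0.64. The heavy chain gene H2-K1 was at 107 and 60.5 CPM (log2 ratio 0.82) and the light chain B2m at 274 and 285 CPM (log2 ratio -0.05), while the immunoproteasome gene Psmb9 was at 5.804 and 0.973 CPM (log2 ratio 2.58). H2-Q4 and H2-Q7 had log2 ratios of 1.80 and 3.44, and reads of the H2-Q genes may be shared among copies.

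Cytokine genes of the interleukin 6 family and their receptors gave 8 higher and 1 lower of 12 tested, with a median of 1.27 (3.01 over 2 members with short introns). Il6 was at 239 CPM in iWAT_DFAT and 17.2 CPM in iWAT_SVF (log2 ratio 3.80, 3.75 to 3.85) and Lif, the leukaemia inhibitory factor, at 62.2 and 3.55 CPM (log2 ratio 4.13). The receptor Osmr was at 170.1 and 67.8 CPM (log2 ratio 1.33), the transducer Stat3 at 233 and 113 CPM (log2 ratio 1.05), and the feedback inhibitor Socs3 at 40.0 and 8.59 CPM (log2 ratio 2.22). In the interleukin 1 family 8 of 11 tested genes were higher and 0 lower, with a median of 1.47 (2.38 with only cells low in cell cycle genes). Its receptor Il1r1 was at 881 and 106 CPM (log2 ratio 3.06, 3.04 to 3.08), the interleukin 33 receptor Il1rl1 at 337 and 22.3 CPM (log2 ratio 3.92), and the decoy receptor Il1r2 at 23.8 and 3.12 CPM (log2 ratio 2.93). Irak3, a kinase-dead brake on this pathway, was at 193 and 14.6 CPM (log2 ratio 3.72). The ligand gene Il33 was at 21.8 and 7.95 CPM (log2 ratio 1.46), and Il1b had 4 UMIs in iWAT_DFAT and 1 in iWAT_SVF.

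Prostaglandin and aldo-keto genes gave 7 of 13 tested higher and 0 lower, with a median of 1.22. The inducible cyclooxygenase gene Ptgs2 was at 549.6 CPM in iWAT_DFAT and 58.0 CPM in iWAT_SVF (log2 ratio 3.25, 3.22 to 3.27) and the constitutive Ptgs1 at 149 and 55.1 CPM (log2 ratio 1.44). Ptges, which makes prostaglandin E2, was at 110.1 and 25.9 CPM (log2 ratio 2.09), and the receptor gene Ptgfr at 19.3 and 3.10 CPM (log2 ratio 2.63). The phospholipase gene Pla2g4a was at 156 and 58.6 CPM (log2 ratio 1.42).

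Immediate early genes, which answer quickly to growth factors and stress, were mostly higher. Of 22 tested, 17 were higher and 0 lower, with a median log2 ratio of 2.06. Egr3 was at 95.6 CPM in iWAT_DFAT and 3.69 CPM in iWAT_SVF (log2 ratio 4.69, 4.59 to 4.80), Btg2 at 506 and 54.8 CPM (log2 ratio 3.21) and Fosb at 188 and 29.7 CPM (log2 ratio 2.66). Fos was at 493 and 114 CPM (log2 ratio 2.12), Jun at 275 and 68.3 CPM (log2 ratio 2.01), and Egr1 at 826 and 172 CPM (log2 ratio 2.26). Klf2 did not differ by 2-fold, at 92.1 and 86.1 CPM. The 12 glucocorticoid-responsive genes gave 7 of 11 tested higher and 0 lower, with a median of 1.29 (5.90 over 2 members with short introns), but Lcn2 and Errfi1 on this list answer to other signals too. Zbtb16, which steroids induce strongly, was at 6.07 and 0.206 CPM (log2 ratio 4.88), while Fkbp5 and Tsc22d3, which are used as reporters of the hormone, had log2 ratios of 0.08 and -0.99.

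**Figure D2:**
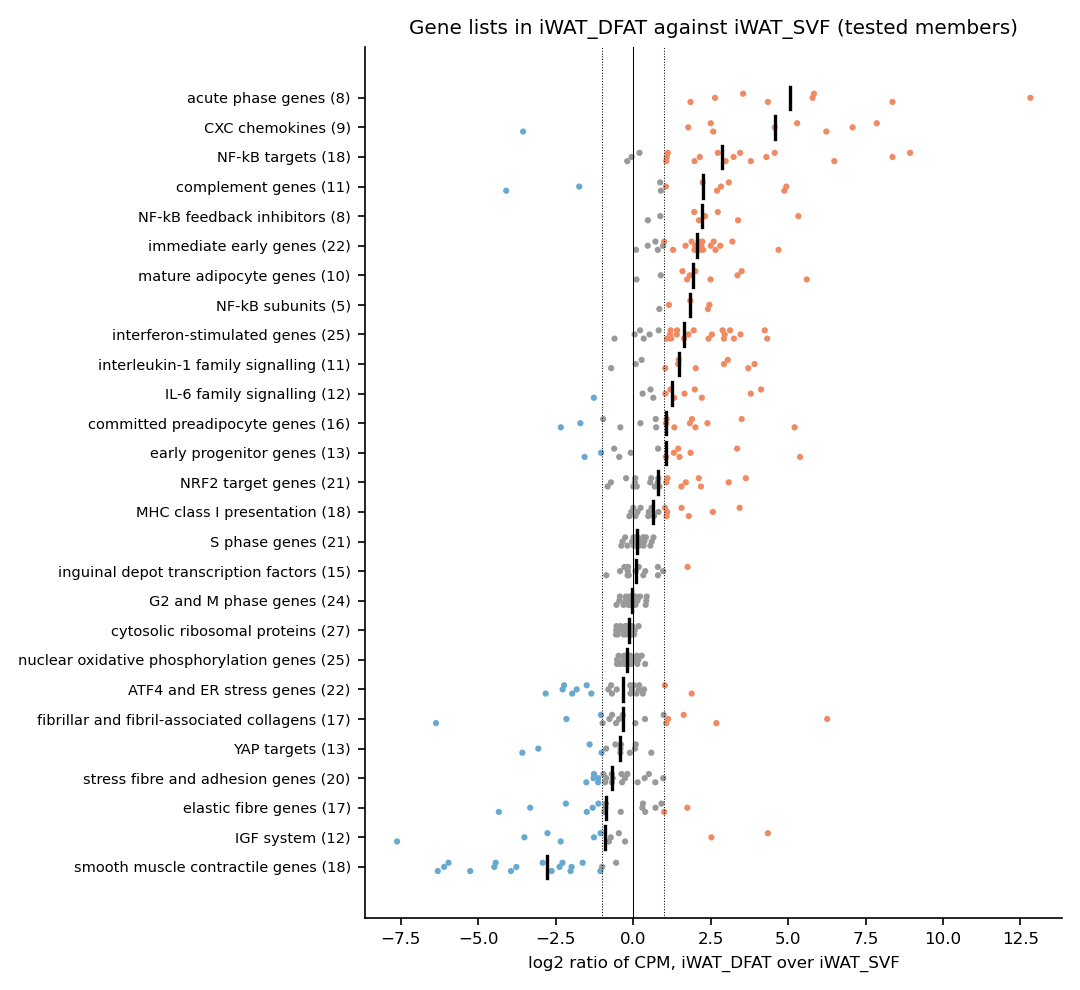
Log2 ratio of iWAT_DFAT over iWAT_SVF for the tested members of 27 gene lists, 1 point a gene, with the number of tested members in brackets and a black bar at the list's median. Orange and blue points are at least 2-fold higher or lower, dotted lines mark 2-fold, and acute phase genes (median 5.07) and smooth muscle contractile genes (median -2.77) stand at the ends.

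Smooth muscle contractile genes were lower in iWAT_DFAT. Of 18 tested, 16 were at least 2-fold lower and 0 higher, with a median log2 ratio of -2.77, and the 20 genes of the list summed to 4717 CPM in iWAT_DFAT and 23215 CPM in iWAT_SVF. Actg2, the enteric smooth muscle actin, was at 4.50 CPM in iWAT_DFAT and 355 CPM in iWAT_SVF (log2 ratio -6.30, -6.40 to -6.20), Myh11, the smooth muscle myosin heavy chain, at 0.811 and 55.5 CPM (log2 ratio -6.10, -6.34 to -5.86), and Cnn1, which codes for calponin, at 5.07 and 314 CPM (log2 ratio -5.95, -6.05 to -5.86). Tagln, an actin-bundling gene, was at 277 and 4241 CPM (log2 ratio -3.94), and Mylk, the kinase that starts contraction, at 9.50 and 205 CPM (log2 ratio -4.43). Skeletal actin Acta1 was at 3.02 and 115 CPM (log2 ratio -5.25). The tropomyosin genes Tpm2 and Tpm1 had log2 ratios of -2.28 and -1.05. The members under 2-fold were Cald1, at 2306 and 3367 CPM (log2 ratio -0.55), and Smtn, at 16.1 and 32.2 CPM. Contractile actins and myosins are also made by mural and smooth muscle cells. Of the 5 tested mural markers 2 were lower, 1 was higher and 2 were within 2-fold, with the sums of 33.8 and 50.9 CPM given above, and their part in this result was not tested. Kept to cells low in cell cycle genes, Acta2 had a log2 ratio of -4.80.

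The CArG box, to which SRF binds, was looked for by its consensus in the same promoter windows. Of all 27025 genes with a promoter 1.62% held it, and of the tested genes with a promoter 1.47% did. It was in 4.56% of the 373 lower genes with a promoter (17 genes) and in 1.28% of the 780 higher genes. Of 14 contractile genes with a promoter 2 held it, Acta1 and Myl9, and Fhl1, a LIM domain gene of muscle, was another of the 12 largest ratios with a match. Among immediate early genes 1 of 17, Egr2, held it, at 72.7 CPM in iWAT_DFAT and 10.3 CPM in iWAT_SVF, so that matches stood in genes of either direction. The stretches are shown for 3 lower genes and for 1 of the matches of Egr2, with the match in capitals, 5′ to 3′ on the gene's strand, from the same RefSeq table.
Acta1, chr8:123894814-123894873, minus strand: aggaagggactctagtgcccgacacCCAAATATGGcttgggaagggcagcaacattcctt
Fhl1, chrX:56779556-56779615, plus strand: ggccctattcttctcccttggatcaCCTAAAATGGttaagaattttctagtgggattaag
Myl9, chr2:156775278-156775337, plus strand: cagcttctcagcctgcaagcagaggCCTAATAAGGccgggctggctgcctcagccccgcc
Egr2, chr10:67537772-67537831, plus strand: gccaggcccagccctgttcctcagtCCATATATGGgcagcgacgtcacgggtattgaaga
Fhl1 was at 2.21 CPM in iWAT_DFAT and 82.6 CPM in iWAT_SVF (log2 ratio -5.23, -5.37 to -5.09) and Myl9, the regulatory light chain of myosin, at 56.2 and 763 CPM (log2 ratio -3.76, -3.79 to -3.74).

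The list of SRF, its partners and genes under them was split. Of 10 tested, 3 were higher (Fosb, Egr1 and Fos) and 3 lower (Cnn1, Acta2 and Tagln), with a median of 0.32 (2.12 over 5 members with short introns). The higher genes are also on the immediate early list and the lower ones on the contractile list, so the split repeats those results. Srf itself was at 12.3 and 10.3 CPM. The partner gene Myocd, which is specific to muscle, had 17 UMIs in iWAT_DFAT and 683 in iWAT_SVF, below the tested level, a log2 ratio of -5.21 (-5.998 to -4.52). Stress fibre and adhesion genes gave 5 of 20 lower and 0 higher, with a median of -0.67. These were Cnn2, Itgb1, Actn1, Flna and Myl6, the largest being Cnn2 at 180.1 CPM in iWAT_DFAT and 512 CPM in iWAT_SVF (log2 ratio -1.51). YAP target genes, which answer to a stiff surface, gave 4 of 13 lower and 0 higher with a median of -0.41 (-1.23 over 2 members with short introns). Ankrd1 was at 10.4 and 124 CPM (log2 ratio -3.57) and Ccn2 at 34.4 and 286 CPM (log2 ratio -3.06), while Ccn1 was at 426 and 283 CPM (log2 ratio 0.59).

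Matrix genes differed in both directions. Of 17 tested fibrillar and fibril-associated collagens 5 were higher and 3 lower. The main fibrillar chains differed by less than 2-fold: Col1a1 was at 1546 CPM in iWAT_DFAT and 2621 CPM in iWAT_SVF (log2 ratio -0.76), Col1a2 at 2298 and 3137 CPM (log2 ratio -0.45) and Col3a1 at 1147 and 1089 CPM (log2 ratio 0.08). Larger ratios than these were found for Col24a1, Col5a3 and Col8a1, at 139 and 1.81 CPM (log2 ratio 6.26, 6.11 to 6.42), 117 and 18.2 CPM (log2 ratio 2.69) and 40.6 and 179.9 CPM (log2 ratio -2.15). Of 15 tested basement membrane genes 1 was higher and 4 lower. The type IV chains Col4a1 and Col4a2 had log2 ratios of -1.29 and -1.39, and the laminin chains Lama2 and Lama4 had -1.98 and 1.44, in opposite directions. Of 20 collagen modifying enzymes 2 were higher and 3 lower, among them the crosslinking enzyme Lox at 777 and 1636 CPM (log2 ratio -1.07) and the procollagen protease Tll1 at 4.44 and 36.5 CPM (log2 ratio -3.04).

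Dcn codes for the small proteoglycan decorin, which binds collagen and TGF-β, and was at 1687 CPM in iWAT_DFAT and 181 CPM in iWAT_SVF (log2 ratio 3.22, 3.202 to 3.23). Of the 8 tested proteoglycans of its family 2 were higher and 3 lower: Lum was at 9.94 and 3.88 CPM (log2 ratio 1.36), and Aspn and Fmod at log2 ratios of -3.05 and -1.61. Elastic fibre genes gave 2 of 17 higher and 6 lower with a median of -0.88, but over 4 members with short introns the median was 0.56, of the other sign. Elastin itself, Eln, was at 2.12 and 42.7 CPM (log2 ratio -4.33, -4.48 to -4.18), Mfap4 at 2.71 and 27.0 CPM (log2 ratio -3.32) and Fbln5, which assembles the fibre, at 38.3 and 172 CPM (log2 ratio -2.17). The matricellular and glycoprotein list gave 7 of 17 higher and 9 lower, and only Thbs3 within 2-fold, with a median of -1.06 (3.42 for Spp1, the 1 member with short introns, and -0.21 with only cells low in cell cycle genes). Spp1, which codes for osteopontin, was at 1950.4 and 182 CPM (log2 ratio 3.42, 3.41 to 3.44) and the hyaluronan synthase gene Has1 at 14.9 and 2.80 CPM (log2 ratio 2.41). On the other side Comp was at 0.201 and 14.5 CPM (log2 ratio -6.17), periostin (Postn) at 45.6 and 405 CPM (log2 ratio -3.15), and fibronectin (Fn1) at 606 and 1278 CPM (log2 ratio -1.08).

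Metalloproteinase and inhibitor genes differed in both directions. Of 16 tested 7 were higher and 2 lower. Mmp3, which codes for stromelysin, was at 426 CPM in iWAT_DFAT and 21.6 CPM in iWAT_SVF (log2 ratio 4.30, 4.26 to 4.35), Mmp2 at 223 and 58.3 CPM (log2 ratio 1.94) and the aggrecanase Adamts9 at 173 and 26.1 CPM (log2 ratio 2.73). Timp3 (ENSMUSG00000020044, chr10:86300372-86349506 of mm10), a matrix-bound inhibitor, was at 56.4 CPM (55.3 to 57.5) in iWAT_DFAT and 1308 CPM (1303 to 1313) in iWAT_SVF, a log2 ratio of -4.53 (-4.56 to -4.51). The soluble inhibitors Timp1 and Timp2 had log2 ratios of 0.84 and -0.87, within 2-fold. In the plasminogen activator system 3 of 9 tested were higher and 1 lower, with Serpinb2 the largest by far and Plat, the tissue activator, at 33.9 and 13.9 CPM (log2 ratio 1.29).

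In the IGF system 6 of 12 tested were lower and 2 higher, with a median of -0.91, but over 2 members with short introns the median was 0.74, of the other sign. Igf1 was at 15.0 CPM in iWAT_DFAT and 75.6 CPM in iWAT_SVF (log2 ratio -2.33) and the binding protein Igfbp4 at 37.999 and 257 CPM (log2 ratio -2.76). Pappa, the protease that frees IGF from it, was at 6.45 and 73.2 CPM (log2 ratio -3.504). The higher members were Stc1, an inhibitor of Pappa, at 36.9 and 1.81 CPM (log2 ratio 4.35), and Igfbp3, the main binding protein of serum, at 178 and 30.9 CPM (log2 ratio 2.53, 2.49 to 2.57). Igf2 was below the tested level, at 0.152 and 0.301 CPM.

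EGF receptor ligands and receptors had 5 of 8 tested higher and 0 lower, with a median of 1.37. Ereg, which codes for epiregulin, was at 118 CPM in iWAT_DFAT and 16.3 CPM in iWAT_SVF (log2 ratio 2.86), Areg, amphiregulin, at 5.22 and 0.281 CPM (log2 ratio 4.21) and the receptor Egfr at 468 and 177 CPM (log2 ratio 1.41). The receptor's inhibitor Errfi1 was at 305 and 52.6 CPM (log2 ratio 2.54). Of 10 tested FGF ligands and receptors 4 were higher and 1 lower, with the adipogenic ligand Fgf10 at 15.2 and 2.71 CPM (log2 ratio 2.49) and the inhibitor Spry1 at 6.97 and 51.7 CPM (log2 ratio -2.89). Of 6 tested PDGF genes 1 was higher and 2 lower. Both tested proliferin genes, which code for prolactin-like growth factors, were higher. Prl2c2 was at 184 and 5.06 CPM (log2 ratio 5.18) and Prl2c3 at 96.6 and 2.84 CPM (log2 ratio 5.09), but the copies are near-identical and the division of reads between them is uncertain.

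Of 20 tested TGF-β and activin genes 6 were higher and 4 lower. Inhbb, an activin subunit, was at 45.3 CPM in iWAT_DFAT and 3.74 CPM in iWAT_SVF (log2 ratio 3.60), the related Inhba at 105 and 304 CPM (log2 ratio -1.53), and the ligand Tgfb3 at 11.0 and 50.3 CPM (log2 ratio -2.19). The co-receptor Tgfbr3 was at 521 and 123 CPM (log2 ratio 2.09). BMP ligands and antagonists gave 3 higher and 3 lower of 12. The ligand Bmp4, which commits cells to fat, was at 0.327 and 10.7 CPM (log2 ratio -5.03, -5.42 to -4.66) and the antagonist Grem1 at 1.63 and 20.7 CPM (log2 ratio -3.66). Bmp7 had 40 UMIs in iWAT_DFAT and 0 in iWAT_SVF, far below the tested level. Of 7 tested Wnt ligands and antagonists 2 were higher and 4 lower. The antagonist Sfrp2 was at 148 and 1.93 CPM (log2 ratio 6.26, 6.12 to 6.41), whereas Sfrp1 was at 91.4 and 240.2 CPM (log2 ratio -1.39) and Dkk2 at 7.47 and 62.0 CPM (log2 ratio -3.05). The ligand Wnt5a was at 8.14 and 49.3 CPM (log2 ratio -2.60) and Wnt5b at 14.7 and 1.72 CPM (log2 ratio 3.10). Among 21 tested axon guidance genes 6 were higher and 4 lower, with Sema3d at 0.642 and 19.1 CPM (log2 ratio -4.89) and Slit3 at 2149 and 683 CPM (log2 ratio 1.65).

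Markers of early, interstitial progenitors gave 7 of 13 tested higher and 2 lower, with a median of 1.06 (0.14 over 4 members with short introns). Dpp4, a surface peptidase that marks interstitial progenitors, was at 15.5 CPM in iWAT_DFAT and 1.51 CPM in iWAT_SVF (log2 ratio 3.36, 3.18 to 3.53), Pi16, another marker of these progenitors, at 24.6 and 0.587 CPM (log2 ratio 5.39), and Ly6c1 at 94.5 and 26.1 CPM (log2 ratio 1.86). Cd34 was at 21.7 and 7.69 CPM (log2 ratio 1.499). Thy1 and Cd248, also surface genes of stroma, were lower, with log2 ratios of -1.56 and -1.03. Markers of committed preadipocytes gave 9 of 16 higher and 2 lower with a median of 1.08. The largest ratio was that of the chemokine gene Ccl11 given above. This list also holds the NF-κB target Icam1, and it shares Fabp4, Cd36 and Lpl with the mature adipocyte genes. Cd36, the fatty acid translocase, was at 9.91 and 0.873 CPM (log2 ratio 3.51) and Dlk1, an inhibitor of adipogenesis, at 3.09 and 15.5 CPM (log2 ratio -2.33). Of all 14 ASPC markers, 8 were higher and 3 lower, with a median of 1.195, but over 2 members with short introns the median was -0.12, of the other sign.

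Adipogenic transcription factors gave 8 of 19 tested higher and 1 lower, with a median of 0.68 (1.14 over 4 members with short introns). Pparg, the master regulator of the adipocyte, was at 44.8 CPM in iWAT_DFAT and 17.8 CPM in iWAT_SVF (log2 ratio 1.33, 1.28 to 1.39) and Cebpa, its partner, at 13.7 and 6.18 CPM (log2 ratio 1.15). The early factor Cebpb was at 709.9 and 176 CPM (log2 ratio 2.01) and the commitment factor Zfp423 at 13.6 and 2.58 CPM (log2 ratio 2.40). Klf5 was the lower member at 3.33 and 9.04 CPM (log2 ratio -1.44). Of 26 mature adipocyte genes 10 were tested, 8 of them higher and 0 lower in iWAT_DFAT, with a median of 1.92 (3.06 with only cells low in cell cycle genes). Plin1, which coats the lipid droplet, was at 13.9 and 0.286 CPM (log2 ratio 5.60, 5.23 to 6.01). Adipoq, which codes for adiponectin, had 225 UMIs in iWAT_DFAT and 20 in iWAT_SVF, a log2 ratio of 3.61 (2.95 to 4.35) at about 1 CPM. Under the alternatives on cells, scaling and free RNA this ratio ran from 2.72 to 4.42. Leptin (Lep) had 0 UMIs in both. The fatty acid carrier gene Fabp4 was at 327 and 81.0 CPM (log2 ratio 2.01) and the lipoprotein lipase gene Lpl at 487 and 136 CPM (log2 ratio 1.83).

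Genes of lipid droplets and lipid handling gave 2 of 15 higher and 4 lower, with Fabp5, the carrier of skin and macrophages, at 254 CPM in iWAT_DFAT and 1022 CPM in iWAT_SVF (log2 ratio -2.01). Synthesis and energy pathways were mostly within 2-fold. Of 22 cholesterol and fatty acid synthesis genes 1 was higher and 0 lower, namely Elovl6 at 88.9 and 39.9 CPM (log2 ratio 1.16). Of 23 tested glycolysis and hypoxia genes 3 were higher and 0 lower. All 25 nuclear oxidative phosphorylation genes were within 2-fold with a median of -0.19. So were 27 cytosolic ribosomal proteins and 20 ribosome biogenesis genes, with medians of -0.12 and 0.15. The 13 mitochondrially encoded genes were also within 2-fold, but with a median of 0.61, beside the mitochondrial shares of 3.12% and 2.18% given above.

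None of 21 S phase and 24 G2 and M phase genes differed by 2-fold, with medians of 0.14 and -0.03. With only cells low in cell cycle genes the S phase median was -0.14, the G2 and M phase median -0.29 and that of the ribosome biogenesis genes -0.05. Those cells were chosen by these S, G2 and M phase genes, below the median share of each library. For G2 and M phase genes the limits were 0.0388% of UMIs in iWAT_DFAT and 0.0466% in iWAT_SVF. The S phase and the G2 and M phase medians thus depend on the choice of cells itself. Top2a, the mitotic topoisomerase, was at 155 CPM in iWAT_DFAT and 157 CPM in iWAT_SVF (log2 ratio -0.02, -0.04 to 0.01) and Mki67 at 152 and 112 CPM (log2 ratio 0.44). Of 13 tested replication-dependent histone genes 3 were lower and 0 higher, the largest being Hist1h2ap at 53.9 and 277 CPM (log2 ratio -2.36). Hist1h1b was at 153 and 115 CPM (log2 ratio 0.41, and 1.07 with only cells low in cell cycle genes). Histone genes are near-identical copies whose reads may be divided arbitrarily. The list of CDK inhibitors and p53 genes also holds the D cyclins and the kinase genes Cdk4 and Cdk6. Of its 21 tested members 4 were lower and 0 higher. The lower inhibitors were Cdkn1c at 7.98 and 79.9 CPM (log2 ratio -3.32) and Cdkn2a at 24.3 and 68.2 CPM (log2 ratio -1.49). The lower cyclins were Ccnd2 at 211 and 611 CPM (log2 ratio -1.54) and Ccnd1 at 86.2 and 179 CPM (log2 ratio -1.05).

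NRF2 target genes, which defend against oxidants, gave 8 of 21 higher and 0 lower, with a median of 0.80 (0.06 over 7 members with short introns). The cystine importer gene Slc7a11 was at 160.1 CPM in iWAT_DFAT and 18.8 CPM in iWAT_SVF (log2 ratio 3.09), Gsta3 at 47.8 and 3.84 CPM (log2 ratio 3.64) and Nqo1 at 151 and 46.3 CPM (log2 ratio 1.70). Hmox1, the heme oxygenase, was at 119 and 195 CPM (log2 ratio -0.71). Of 4 tested metallothionein and zinc genes 3 were higher, with Mt2 at 379.5 and 35.3 CPM (log2 ratio 3.42). ATF4 and endoplasmic reticulum stress genes gave 7 of 22 lower and 2 higher. Among the lower genes Trib3, a pseudokinase gene, was at 5.25 and 37.0 CPM (log2 ratio -2.82), Phgdh, the first enzyme of serine synthesis, at 59.6 and 278 CPM (log2 ratio -2.22), and Asns, the asparagine synthetase, at 64.5 and 182 CPM (log2 ratio -1.49). The chaperone Hspa5, on the protein folding branch, was at 992 and 797 CPM (log2 ratio 0.32). Of 15 heat shock genes 1 was higher and 2 lower, the latter being Cryab at 220.2 and 751 CPM (log2 ratio -1.77) and Hspb1 at 119 and 331 CPM (log2 ratio -1.47).

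Of 15 tested transcription factors of subcutaneous fat 1 was higher and 0 lower, with a median of 0.08 (-0.04 over 8 members with short introns, -0.14 with a minimum of 20 CPM). Tbx15, a marker of the subcutaneous depot, was at 91.3 CPM in iWAT_DFAT and 103 CPM in iWAT_SVF (log2 ratio -0.17), and Hoxc10 at 90.4 and 101 CPM (log2 ratio -0.16). The visceral factor Wt1 had 24 UMIs in iWAT_DFAT and 3 in iWAT_SVF, a log2 ratio of 3.12 (1.40 to 5.49). Of 5 tested visceral factors 1 was higher and 1 lower, and of 16 imprinted growth genes 6 were lower and 0 higher. Mesenchymal factors gave 5 of 19 higher and 1 lower, among them Prrx1 at 1195 and 488 CPM (log2 ratio 1.29). Of 8 long noncoding RNAs 2 were higher and 2 lower, with Neat1 at 746 and 299 CPM (log2 ratio 1.32). The 4 tested sex-linked genes, all from the Y chromosome, were within 2-fold.

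The spread over single cells was computed for 18 genes as UMIs per 10000 of a cell, at the 10th percentile, the median and the 90th, and is given here in full for some and in part for the others. For Acta2 these were 0, 0.587 and 10.2 in iWAT_DFAT and 23.1, 73.4 and 154.9 in iWAT_SVF, so that 96.6% of the cells of iWAT_DFAT lay below the 10th percentile of iWAT_SVF. For Tagln the share was 94.5% and for Timp3 89.3%. Most cells of iWAT_DFAT were thus below the range that held most cells of iWAT_SVF for these 3 genes. Igfbp2, Actg2 and Cnn1, also among the largest lower ratios, had a 10th percentile of 0 in iWAT_SVF, so no cell could lie below it. Their 90th percentiles in iWAT_SVF were 0.652, 9.95 and 7.29, against 0 in iWAT_DFAT, and the median of Igfbp2 was 0 in both libraries.

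For genes that were higher and had a 90th percentile above 0 in iWAT_SVF, the share of cells of iWAT_DFAT above it is given. Cxcl5 had 6.73, 30.9 and 61.6 in iWAT_DFAT and 0, 0 and 0.632 in iWAT_SVF, with 98.2% of cells above. Shares were 96.2% for Cxcl1, 94.2% for Ccl2, 92.2% for Nfkbia, 78.5% for Dcn and 62.1% for Spp1. Saa3 was far more uneven, at 0.396, 6.88 and 116.2 in iWAT_DFAT, against 0 at all 3 percentiles in iWAT_SVF. Serpinb2 was at 0, 2.25 and 14.1 and Lcn2 at 0, 0.277 and 5.49 in iWAT_DFAT, with 0 at the 3 percentiles in iWAT_SVF. Rarres2 was at 0.476, 7.76 and 22.01 in iWAT_DFAT, also against 0 at the 3 percentiles. Top2a, with 9.18%, and Pdgfrb, with 2.81%, showed no such shift. Cells can hold free RNA of a library, and the free droplets of iWAT_DFAT had Cxcl5 at 3701 CPM, Ccl2 at 3941 CPM, Saa3 at 3518 CPM and Serpinb2 at 544 CPM. The part of free RNA in the values of single cells was not tested.

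**Figure D3:**
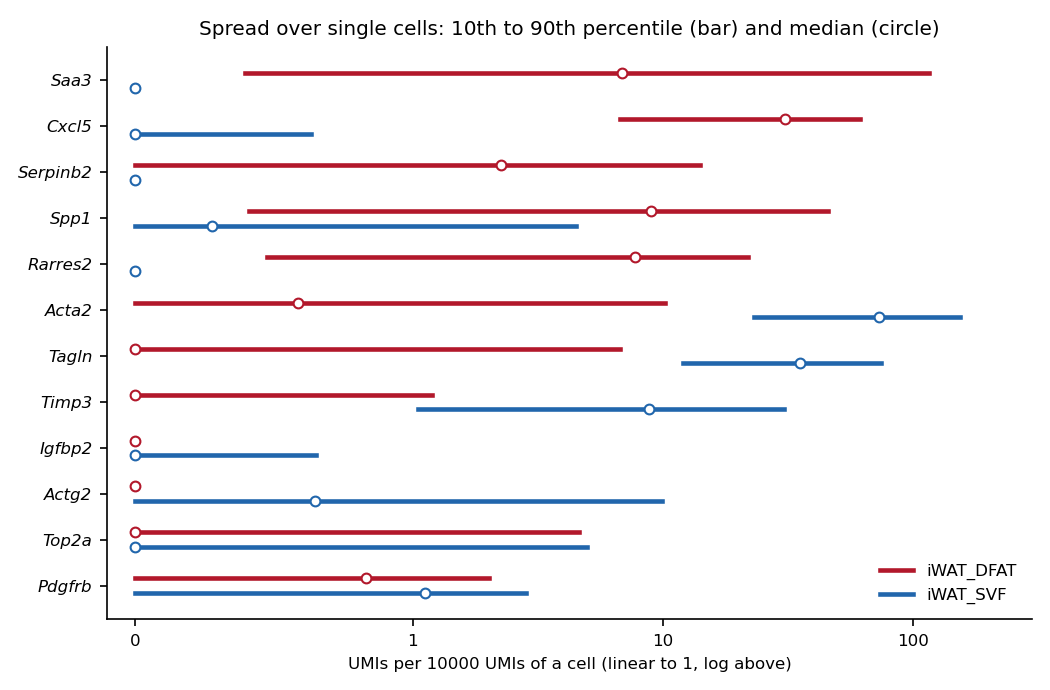
Spread of 12 genes over single cells of iWAT_DFAT (red) and iWAT_SVF (blue), in UMIs per 10000 UMIs of a cell on an axis that is linear to 1 and logarithmic above. Bars run from the 10th to the 90th percentile with a circle at the median, and the bars of Acta2 (medians 0.587 and 73.4), Tagln and Cxcl5 do not overlap between the libraries, while those of Top2a and Pdgfrb do.

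The epididymal pair was set beside the inguinal pair. The pairs share no library, and with 1 library a condition the difference between depots was not tested. In the epididymal pair 663 of 10298 tested genes were higher in DFAT, 6.44%, and 687 lower, 6.67%. Of 9967 genes tested in both, 862 were higher in the inguinal and 570 in the epididymal pair, and 337 were in both, 39.1% of the inguinal and 59.1% of the epididymal genes. Of those lower, 470 and 585 genes, 253 were in both, 53.8% and 43.2%. Of the 862 inguinal higher genes 49, or 5.68%, were lower in the epididymal pair, where 5.87% of all 9967 genes were lower. Of the 470 lower genes 9, or 1.91%, were higher there, against 5.72% of all. Pearson's correlation of the log2 ratios was 0.61 across these 9967 genes, which are not independent of each other.

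Each list median was taken over the members tested in that pair, so the medians of a list need not rest on the same genes. Several groups had the same sign in both pairs. The median log2 ratio of CXC chemokines was 4.57 in the inguinal and 5.62 in the epididymal pair, that of NF-κB targets 2.86 and 1.41, and that of contractile genes -2.77 and -1.45. Acta2 was at 2856 CPM in eWAT_DFAT and 9297 CPM in eWAT_SVF, beside 394 and 8763 CPM in the inguinal libraries. Saa3 was at 683 and 80.9 CPM in the epididymal libraries, and Serpinb2 at 519.7 and 0.324 CPM. Mature adipocyte genes had medians of 1.92 over 10 tested members in the inguinal pair and 3.41 over 16 in the epididymal pair.

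Other groups had the opposite sign. For interferon-stimulated genes the median was 1.64 in the inguinal pair and -0.92 in the epididymal pair, where 0 of 22 tested were higher and 9 lower. Complement genes had 2.25 and -0.50, early progenitor genes 1.06 and -0.78, and glucocorticoid-responsive genes 1.29 and -0.33. Immediate early genes had 2.06 and 0.12, of the same sign. Isg15 was at 17.0 CPM in eWAT_DFAT and 67.2 CPM in eWAT_SVF, and Dpp4 at 3.01 and 9.03 CPM. Both were thus lower in eWAT_DFAT, and higher in iWAT_DFAT.

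**Figure D4:**
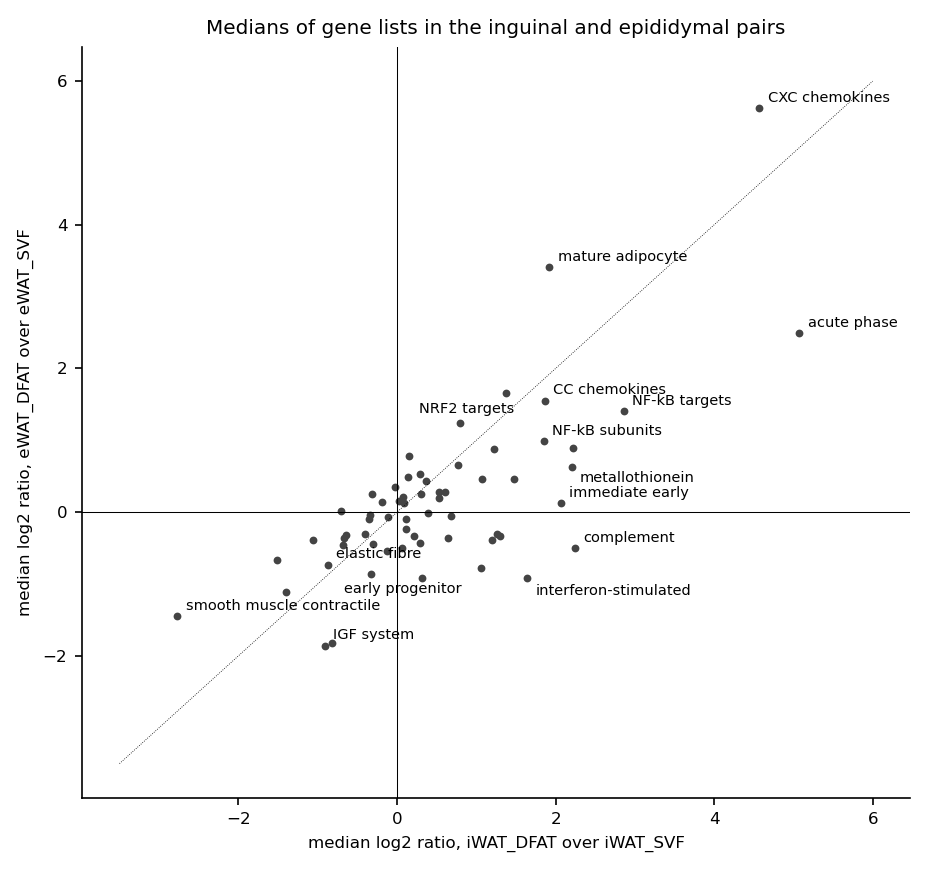
Median log2 ratio of DFAT over SVF for gene lists in the inguinal pair (horizontal) and the epididymal pair (vertical), with the dotted line of equality. Each median is over the members tested in that pair. Lists with few tested members in either depot are left out. CXC chemokines lie high in both (4.57 and 5.62), and interferon-stimulated and complement genes lie right of 0 and below it (1.64 and -0.92, 2.25 and -0.50).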

How the data were processed

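The deposited matrices hold whole-number UMI counts per gene and barcode for all droplets. Per the labels and methods, the authors aligned reads to mm10 with Cell Ranger 7.0.0, introns included; their later steps (CellBender, doublet removal, clustering) are not in the matrices. The authors kept cells from 500 UMIs, and 5000 was used here. This leaves 7629 and 7424 cells, against 7796 and 7843 at 500 UMIs. Doublets were not removed in the values reported, and the highest Scrublet scores were removed in an alternative at 0.8% per 1000 cells. Groups came from the labels. Counts were summed and compared in Python (version 3.11.15) with scanpy 1.11.5 for doublet scores, scipy 1.17.1 for intervals and pandas 2.3.3, in scripts tested on simulated data. Ratios have exact conditional binomial intervals and levels exact Poisson intervals, at 95%. A ratio against 0 counts used a floor of 3 counts in the library. With 1 library a condition no test was made, and no leave-one-out was possible.

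Genes were named by a rule: the 12 largest ratios each way at 20 CPM or more, up to 5 largest and the first 3 written of each of 68 lists, the genes the study names for these cultures, and the 10 genes with the most UMIs. The comparison, members and lists were chosen with earlier results of these data known. Named outside the rule, after their values were seen, were Asns, B2m, Cald1, Ccn1, Cd248, Cd3e, Col3a1, Cp, Csf1, Cx3cl1, Cxcl10, Cxcl12, Cxcl14, Cyld, Gadd45b, Has1, Hmox1, Hoxc10, Hspa5, Il33, Inhba, Irf7, Isg20, Jun, Klf2, Lbp, Lpl, Masp1, Myl9, Mylk, Myocd, Osmr, Pla2g4a, Ptx3, Serping1, Sfrp1, Slit3, Smtn, Sod2, Stat3, Thbs3, Timp1, Timp2, Tpm1 and Tpm2. Alternatives changed the cell limits, the cells kept, scaling, free RNA, minimum level and intron length. Some items are not reported here.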

Additional observations from a re-analysis of the deposited data

Results flagged for a closer look

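Of 68 gene lists, 6 were flagged. They had an inguinal median of at least 2-fold in either direction and an epididymal median of the opposite sign. Lists with very few tested inguinal members were not looked at. Lists with smaller medians were not flagged, though some had opposite signs too, such as MHC class I presentation at 0.64 and -0.36. Each median is over the members tested in that pair. For complement genes the median log2 ratio of DFAT over SVF was 2.25 over 11 members in the inguinal pair. In the epididymal pair the median was -0.50 over 9. It was 1.64 and -0.92 for interferon-stimulated genes. It was 1.27 and -0.31 for the interleukin 6 family, 1.06 and -0.78 for early progenitor genes, 1.29 and -0.33 for glucocorticoid-responsive genes, and 1.195 and -0.39 for ASPC markers. Over members with short introns the inguinal medians were 0.14 for early progenitor genes (4 genes) and -0.12 for ASPC markers (2 genes). Each condition is 1 library, so the difference between the depots was not tested.

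Of 9967 genes tested in both pairs, 49 were called higher in the inguinal and lower in the epididymal pair, and 9 the reverse. A set of 443 named genes was looked at, many picked by the size of their inguinal ratio and some not tested in both pairs. Of these 443 genes, 16 were called in opposite directions in the pairs. Higher in the inguinal and lower in the epididymal DFAT library were Sfrp2 (log2 ratios 6.26 and -1.67), Isg15 (4.25 and -1.98), Dpp4 (3.36 and -1.58), Oasl2 (3.13 and -1.12), Ifit1 (2.545 and -2.32) and Igfbp3 (2.53 and -2.53). So were Socs3 (2.22 and -1.01), Fos (2.12 and -1.81), Il18 (2.02 and -1.04), Ly6c1 (1.86 and -2.33), Lum (1.36 and -1.86) and Ifit3 (1.23 and -3.22). Ccnd1 (-1.05 and 1.21), Sema3a (-1.445 and 1.54), Tll1 (-3.04 and 1.57) and Grem1 (-3.66 and 2.87) had the reverse. These differences were not tested either.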

How the results depend on the processing

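Counts of called genes changed most where the number of tested genes changed. With a minimum of 20 CPM, 666 of 6658 tested genes were higher and 307 lower. With 1 CPM 1524 of 13344 were higher and 965 lower, against 1033 and 540 of 10426. Among 1966 genes with under 5000 intronic bases 180 were higher and 111 lower. The alternatives on cells, scaling and free RNA gave 935 to 1304 higher and 524 to 611 lower genes. Median-of-ratios scaling gave 935 and 607, the higher genes being 60.6% of those called, against 65.7%. The median of macrophage and immune markers was -1.99 over 2 tested genes, whose log2 ratios were -4.71 and 0.72. It was -4.71 over 1 member with short introns. It was 0.74 with only Pdgfra or Pdgfrb cells and 0.59 with cells low in cell cycle genes. The alternative with only Pdgfra or Pdgfrb cells also dropped cells with several markers of another cell type, these markers included. With 2 genes at such unlike ratios, the median depends on which of them stays tested. With genes of under 5000 intronic bases only, the median of matricellular genes was 3.42 (from -1.06) and that of ASPC markers -0.12 (from 1.195). The cause of these reversals was not tested. For 58 named genes followed under the 11 alternatives on cells, scaling and free RNA, 203 log2 ratios lay outside their counting interval and 435 within it. The ratio of Lcn2 reached 9.85 (from 8.37) with only Pdgfra or Pdgfrb cells. With cells low in cell cycle genes it was 8.84 for Cxcl2 (from 7.86), -7.06 for Myh11 (from -6.10) and 1.07 for Hist1h1b (from 0.41). With thinned cells it was 11.59 for Serpinb2 (from 10.79), 9.96 for Il13ra2 (from 9.29) and 8.12 for Csf3 (from 8.94). It was also 8.22 for Gm16685 (from 8.895), 2.72 for Adipoq (from 3.61) and 0.38 for Bmp7 (from 3.855). Bmp7 had 0 UMIs in iWAT_SVF, so both its values are ratios to the floor of 3 counts and only bounds. The ratios of the other 48 genes moved by less than 1.5-fold. Under all alternatives but the minimum of 1 CPM, 690 list medians shifted by less than 0.1. Of 856 list medians under an alternative 28 had the other sign, 11 of them with short introns only, where lists often keep few genes, and 6 with cells low in cell cycle genes. Besides those above, short introns turned elastic fibre genes to 0.56 (from -0.88, 4 genes) and the IGF system to 0.74 (from -0.91, 2 genes). Short introns also turned basement membrane genes to -0.89 (from 0.07, 1 gene). Cells low in cell cycle genes turned S phase genes to -0.14 (from 0.14), but those cells were chosen by these same genes. The matricellular median was also -0.21 with cells low in cell cycle genes, -0.34 as a mean over cells and -0.31 with thinned cells. Cells low in cell cycle genes gave 3.06 for mature adipocyte genes (from 1.92) and 2.38 for the interleukin 1 family (from 1.47), and a minimum of 20 CPM gave 3.455 for CC chemokines (from 1.87), 3.54 for CXC chemokines (from 4.57) and 2.96 for complement genes (from 2.25). The early progenitor median was 0.14 over 4 genes with short introns, against 1.06. No paired analysis was possible because each condition has 1 library. The floor of 3 counts that stood for a count of 0 in ratios was 0.0163 CPM in iWAT_DFAT and 0.0150 CPM in iWAT_SVF.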
